A study of Arabidopsis thaliana with 30 samples.

Results

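Among Arabidopsis genes measured in explants that were forming callus, 112 had their highest excess at 12 h in aerial explants over both ends of the time course. The 112 were taken from 13513 probe sets that name a single gene, out of 22746 probe sets other than controls. For each probe set a score was formed as the mean log2(signal + 22) of aerial explants at 12 h, minus the larger of the means at 0 h and at 96 h. The 120 highest scores were taken, and 8 genes whose root explants scored above 1 by the same formula were left out. The aerial and root means at 0, 12 and 96 h thus chose the genes, and every value at those times is given here as a description with no test. The aerial and root arrays at 24 and 48 h played no part in the choice, and the 5 tests reported below compare only them. The estimates of spread in these tests, and the level filter before them, drew on all 30 arrays.

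Callus-inducing medium brings cells of cut plant organs back into division, and callus formation is known to start from cells that resemble those of a lateral root primordium. Explants on such a medium meet wounding, a new water and sugar supply, and a strong hormone signal at the same time. Several of the genes described here belong to well-known responses: the cold-regulated COR15 proteins protect chloroplast membranes during freezing, dehydrins such as LTI30 accumulate when cells lose water, Aux/IAA proteins repress auxin-responsive genes until auxin triggers their breakdown, and jasmonate is the main wound hormone.

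The arrays came from wild-type Columbia-0 only. Root segments and aerial organs were cut from seedlings 10 days old that had grown under long days, and were sampled after 0, 12, 24, 48 or 96 h on callus-inducing medium. Every one of the 10 groups has 3 biological replicates by its labels, or 30 arrays in all. The 0 h explants served as controls, and there were no explants kept off the medium. The labels do not give the composition of the medium or the clock time of harvest. Of the sampled times 12 h alone is not a multiple of 24 h, and time on medium, response to cutting, age and time of day cannot be told apart at 12 h.

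The trimmed mean signal, with 2% left out at each end, was 500 on all arrays. Pearson's r between replicates ran from 0.932 to 0.977 across 16765 probe sets. The summed signal of 7 leaf photosynthesis genes was 124987 to 173409 in aerial explants at 0 h, 52566 to 68201 at 12 h and 428 to 835 in all root arrays. Both measured root hair markers, EXPA7 and EXPA18, together gave 28.3 to 89.2 in aerial explants at 12 h and 896 to 2423 in root explants at 12 h. Their sums overlapped between the organs at 0 h, with 21.3 to 109.5 in aerial and 65.5 to 262.9 in root explants. They also overlapped at 96 h, with 113 to 214.6 and 70.2 to 281.4. The log2 ratio of 3′ to 5′ probe sets for the GAPDH control was between -0.06 and 0.96 over all arrays, and between 0.17 and 0.85 at aerial 12 h. The 3 stomatal lineage and epidermis genes, FMA, SPCH and TRY, summed to 383 to 452 at aerial 0 h and 131 to 146 at 12 h. Their means went from 144 to 111, from 132 to 14.4 and from 147 to 15.0. The 2 vascular genes summed to 7332 to 10313 and 3925 to 5770. Most of that was SWEET11, with means of 8472 and 4601 against 150 and 108 for OPS. The shoot meristem gene CLV3 stayed at or below 44.2 on all arrays. The part of these shifts in the results below was not tested. In whole explants, fewer cells of a type and less RNA per cell cannot be told apart.

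The median signal over the 112 genes was 87.8 to 94.7 on the aerial arrays at 0 h, 381 to 410 at 12 h, 176 to 213 at 24 h, 149 to 190 at 48 h and 129 to 138 at 96 h. The scores ran from 0.90 to 3.64 with a median of 1.06, and 37 of the 112 lay under 1, which is less than 2-fold. All 3 aerial arrays at 12 h stood above all 6 arrays at 0 and 96 h for 94 genes, against 2.79% of all single-gene probe sets, a count that the choice of genes largely fixes. The other 18 had at least 1 array that overlapped, among them AT2G38240, AT4G11290 and B120. The aerial mean was highest at 12 h in 103 genes (17.1% of all single-gene probe sets), at 24 h in 7 and at 48 h in 2, so that for 9 genes the description "peak at 12 h" does not hold against the later times. In 78 genes every aerial array at 12 h exceeded a signal of 87.4, the level that was also used to decide which probe sets to test, as did 48.7% of all single-gene probe sets. The other 34 were dimmer at their peak on at least 1 array, and their scores rest on low signals.

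**Figure D1:**
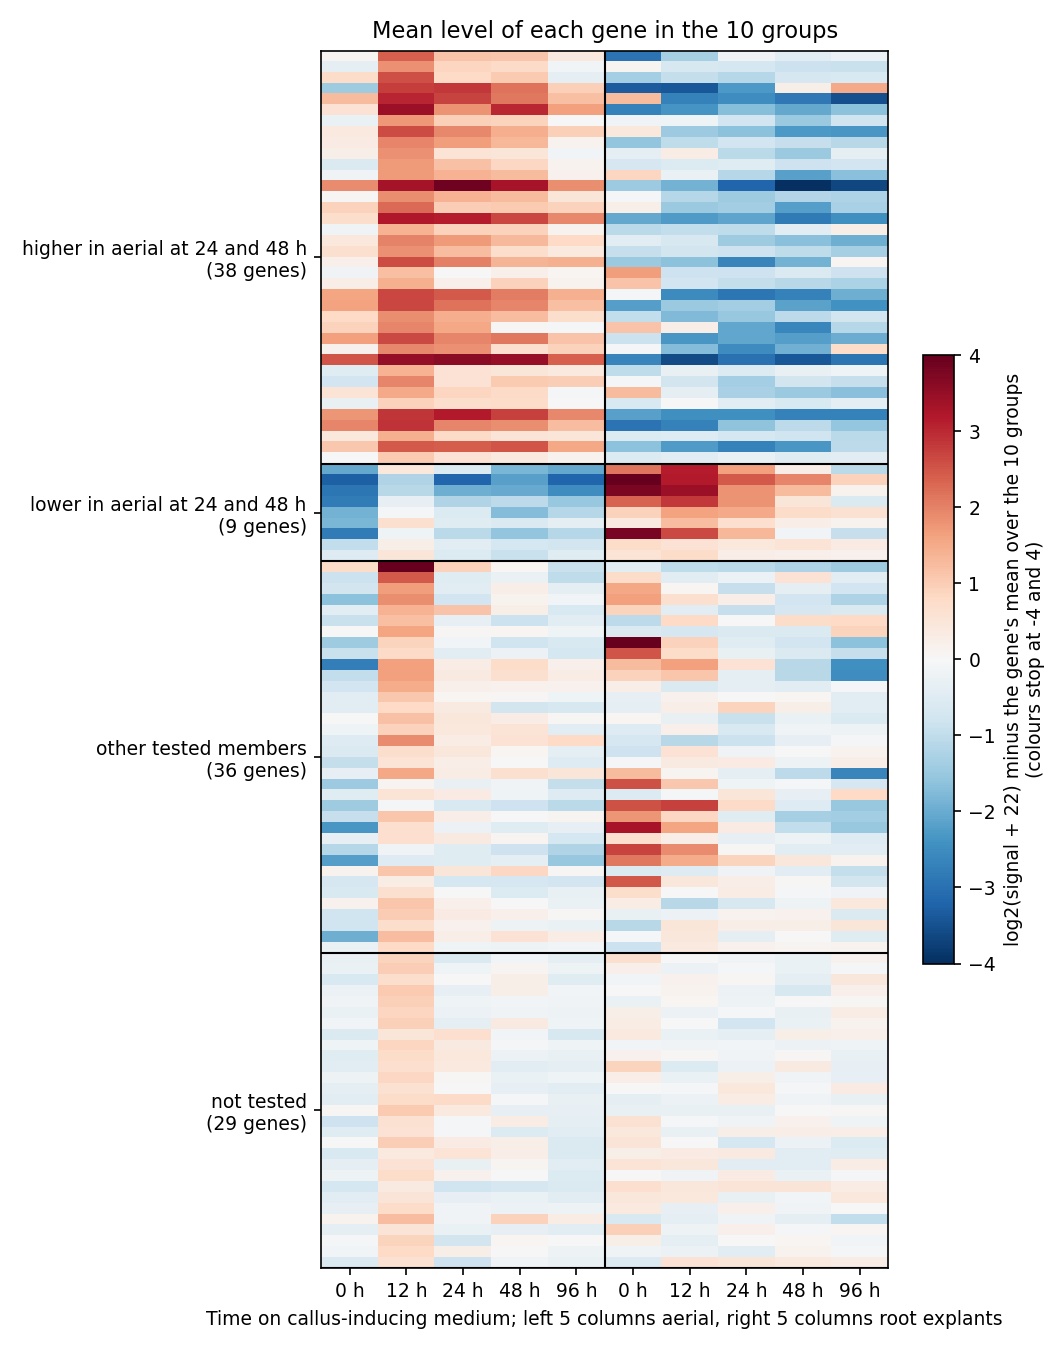
Mean log2(signal + 22) of the 112 genes (rows) in the 10 groups (columns, n = 3 arrays each), minus each gene's mean over the groups, with aerial explants left and root explants right of the line. The genes are grouped by their tests at 24 and 48 h and ordered by score within a group. The 38 genes higher in aerial explants are mostly pale or blue in the root columns, whereas the 9 lower ones are mostly red in root explants at 0 and 12 h.

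The gene with the highest score, COR15A, is a cold-regulated gene. A list of 19 cold and dehydration genes had 5 with a single-gene probe set, and 3 of them, COR15A, COR15B and LTI30, were among the 112. COR15A, which encodes a stromal protein that stabilises membranes in the cold, gave signals of 199, 91.8 and 28.8 in aerial explants at 0 h and 1772, 606 and 2188 at 12 h. At 24 h its arrays gave 93.2, 33.3 and 274, at 48 h 10.3, 197 and 25.4, and at 96 h 5.60, 40.8 and 3.00. All arrays at 12 h were clear of those at every other time, and the score of 3.64 was the highest of the set. No root array of COR15A was above 39.3.

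COR15B, its close relative, rose from 84.3, 103 and 105 at 0 h to 290, 268 and 843 at 12 h, and was at 77.8, 125 and 110 at 24 h. The 12 h arrays were clear of those at the other times, with replicate 3 well above its fellows, and the root arrays stayed at 51.4 or lower at all times. The dehydrin LTI30 gave 195, 142 and 51.1 in aerial explants at 0 h, 443, 403 and 964 at 12 h, then 114, 99.0 and 180 at 24 h. In root explants LTI30 followed the opposite course, from 34950, 30501 and 22994 at 0 h to 10222, 16578 and 10425 at 12 h, then 7156, 6419 and 8127 at 24 h, ending with 3291, 2114 and 2303 at 96 h. Every root array of LTI30 was above every aerial array, the aerial peak included.

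The remaining cold and dehydration genes were not members. COR47, another dehydrin, also had its highest aerial mean at 12 h, but scored 0.54. Its aerial mean was 2988 ± 831 (SD, n = 3) at 0 h, 7710 ± 2984 at 12 h and 3790 ± 800 at 24 h. It was 6615 ± 1862 at 48 h and still 5120 ± 939 at 96 h. In root explants COR47 fell from 20461 ± 5122 at 0 h to 8087 ± 3741 at 12 h, and LTI30 fell there too. The zinc finger repressor STZ (ZAT10) scored -1.40, with 2495 ± 1913 at 0 h and 656 ± 388 at 12 h in aerial explants. Among all tested probe sets, 25.4% were higher and 36.1% lower in aerial than in root explants at 24 h, and 24.2% and 31.5% at 48 h. Of the 5 genes, 3 were higher and 1 was lower at 24 h, and 2 were higher and 1 was lower at 48 h. From 24 to 48 h in root explants, 1 of the 5, COR47, fell (-1.41 ± 0.32, limma adjusted p = 0.00868). COR47 lost that call without root 24 h replicate 2 or 3 or root 48 h replicate 1 (adjusted p 0.0600 to 0.103). Its step from 24 to 48 h in aerial explants exceeded the root step by 2.20 ± 0.45 (limma adjusted p = 0.00527).

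Of the hormone-related genes, JRG21, a jasmonate-regulated gene by its annotation, gave 102, 148 and 81.6 at 0 h and 1011, 990 and 338 at 12 h in aerial explants. It remained at 375, 413 and 273 at 24 h and was at 150, 99.6 and 143 at 48 h. In root explants it also had its highest mean at 12 h, with 2757, 7657 and 4949 after 2578, 2564 and 1953 at 0 h, and its root score of 1.00 lay just inside the limit. The 2 measured genes of a jasmonate and wound list, JMT and OPCL1, both scored below 0 and were not members.

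IAA29, an Aux/IAA repressor, gave 808, 140 and 397 at 0 h, 1940, 1555 and 2011 at 12 h, then 834, 930 and 563 at 24 h in aerial explants. Its arrays at 12 h did not overlap with any other time, although its 3 arrays at 0 h were far apart. In root explants IAA29 went from 27, 1.7 and 60 at 0 h to 495, 303 and 177 at 24 h. Its root means at 24, 48 and 96 h, 325, 250 and 303, were all above the 133 at 12 h. IAA29 was the only member among 8 measured genes of an early auxin list, and the other 7, with scores from -3.33 to -0.50, had higher aerial means at 96 h than at 12 h. GH3.3, an enzyme that conjugates auxin to amino acids, shows this other course, with 315 ± 70.3 at 0 h, 11588 ± 4003 at 12 h and 18523 ± 1730 at 96 h in aerial explants. In the organ tests, 1 of the 8 was higher in aerial explants and 4 were lower at 24 h (25.4% and 36.1% of all tested probe sets), and 1 was higher and 3 were lower at 48 h (24.2% and 31.5%).

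BRH1, a brassinosteroid-responsive RING-H2 gene, was at 2618, 2688 and 1698 at 0 h and at 4319, 6337 and 4110 at 12 h in aerial explants. Its aerial arrays at 24 h, 3815, 4877 and 2137, overlapped with both earlier times. Its root arrays at 12 h, 187, 310 and 260, were also all above those at 0 h, 157, 144 and 123.

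Further members with a symbol are described here one by one, with the counts of the lists nearest to them. Fes1B, a relative of an exchange factor for Hsp70 chaperones, gave 60.7, 126 and 75.8 at 0 h, 321, 358 and 206 at 12 h, then 107, 76.4 and 81.3 at 24 h in aerial explants, back in the range of 0 h. ATHSP22.0, a small heat shock protein of the endoplasmic reticulum, was dim in aerial explants even at 12 h, with 65.2, 57.9 and 68.5, whereas its root arrays at 0 h gave 929, 565 and 245. It was the only member among 3 measured heat shock genes.

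GSTU22, a glutathione transferase of the tau class, gave 60.4, 42.4 and 36.2 at 0 h and 173, 531 and 442 at 12 h in aerial explants, and 2664, 2042 and 2471 at 0 h in root explants. Every root array of GSTU22 up to 24 h was above the aerial peak. None of the 5 measured genes of a xenobiotic and oxidative response list was a member. The glucosyltransferase UGT73B1, which acts on flavonoids, went from 261, 309 and 368 to 729, 512 and 868 between 0 and 12 h in aerial explants. UGT71B6, which glucosylates abscisic acid, was dim, with 54.4, 58.8 and 31.2 at 12 h, and was not tested.

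EXPA16, an expansin that loosens cell walls, gave 241, 143 and 193 at 0 h, 987, 452 and 557 at 12 h, then 508, 613 and 438 at 24 h in aerial explants. Its arrays at 12 and 24 h overlapped, and its root arrays never exceeded 93.4. The 9 measured genes of a cell wall loosening list, which does not hold EXPA16, included no member. Both beta-glucosidases of the set differed in course: BGLU28 gave 295, 395 and 200 at aerial 12 h and 74.5, 69.1 and 116 at 24 h, while BGLU44 gave 4379, 3561 and 4967 at 12 h and 3731, 2806 and 4478 at 24 h. BGLU44 in root explants dropped from 568, 555 and 734 at 0 h to 62.5, 151 and 80.3 at 12 h.

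Among the other members with a gene symbol, DPE1, the plastid disproportionating enzyme of starch breakdown, gave 186, 396 and 404 at 0 h, 839, 472 and 620 at 12 h, then 318, 282 and 381 at 24 h in aerial explants. Its root arrays moved the other way between 0 and 12 h, from 430, 280 and 332 to 137, 107 and 106. OTP81, an RNA editing factor of organelles, gave 207, 210 and 265 at aerial 12 h and 96.9, 99.4 and 116 at 24 h. SD1-29, a receptor kinase that senses bacterial fatty acid compounds, gave 468, 373 and 384 at 12 h, then 357, 286 and 232 at 24 h. The related S-domain gene B120 had its highest aerial mean at 48 h, where its arrays of 39.8, 83 and 395 were far apart. The mitochondrial gene nad1, a subunit of respiratory complex I, gave 179, 301 and 329 at aerial 12 h after 64.3, 93.0 and 141 at 0 h, and 6 further probe sets of nad1 scored between -0.08 and 0.88.

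For 93 members the annotation gives only a locus code, and no role is stated for them here. AT4G30650 had the second highest score, 3.28. Its aerial arrays gave 207, 409 and 189 at 0 h, 2397, 2864 and 2735 at 12 h, then 220, 468 and 349 at 24 h, so that the 3 peak arrays were close together and clear of both neighbouring times. Its neighbour in the genome, AT4G30660, gave 435, 628 and 283 at 0 h, 1767, 2754 and 1890 at 12 h, then 735, 884 and 928 at 24 h. Both had lower root arrays at 12 h than at 0 h, without overlap.

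AT1G56300 went from 60.3, 74.1 and 39.8 at 0 h to 910, 730 and 1004 at 12 h and back to 74.7, 139 and 182 at 24 h in aerial explants, a log2 difference of -2.61 between 12 and 24 h. AT3G23550 gave 662, 522 and 284 at 12 h and 168, 115 and 35.0 at 24 h, but its arrays at 48 h, 67.1, 69.9 and 717, included 1 as high as the peak. AT2G41730 likewise had a single high array, replicate 3, at 24 h (214, 407 and 918) and at 48 h (160, 145 and 710). In both AT3G23550 and AT2G41730 the mean at 48 h rests on 1 high array.

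AT5G02540 differed from them in keeping its level. Its aerial arrays gave 336, 242 and 242 at 0 h, 4989, 6316 and 4548 at 12 h, then 7202, 5054 and 4582 at 24 h, ending with 1468, 1278 and 1690 at 96 h. Its root arrays started at 61.5, 60.5 and 42.4, and reached 2740, 1743 and 2226 at 96 h. Root explants thus passed the aerial level at 96 h, after a course that had no peak.

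**Figure D2:**
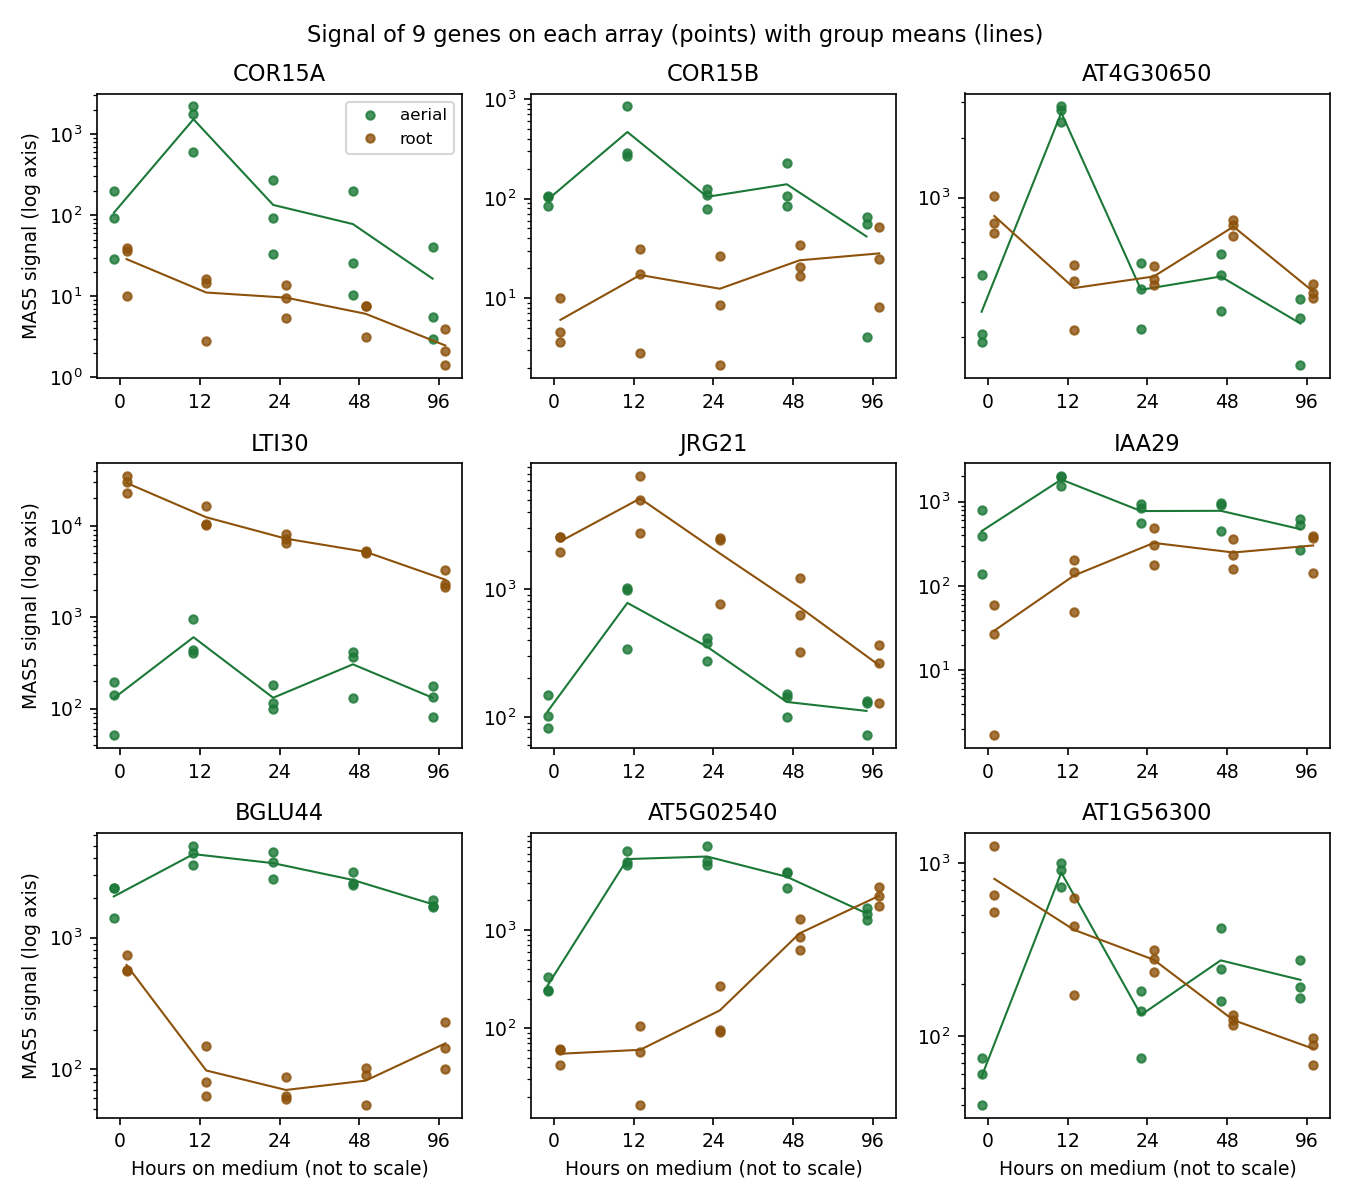
MAS5 signal of 9 genes on each array (points, log axis) against hours on medium (axis not to scale), with lines through the arithmetic group means of 3 arrays, for aerial (green) and root (brown) explants. COR15A, COR15B and AT4G30650 stand out at aerial 12 h alone. LTI30 lies higher in root explants at every time and JRG21 at least up to 48 h, and AT5G02540 climbs in root explants until 96 h.

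Other genes among the 20 highest scores were AT5G27280 (1.95), AT2G04050 (1.84), AT1G67910 (1.78), AT3G62550 (1.77), AT4G33490 (1.71), AT1G12845 (1.67), AT1G68500 (1.60) and AT5G47330 (1.57). AT1G67910 gave 4392, 3589 and 2559 at aerial 12 h while its root arrays went from 1145, 1166 and 703 at 0 h to 21.5, 85.3 and 35.7 at 12 h. AT3G62550 gave 2157, 1790 and 3036 at aerial 12 h, 533, 700 and 985 at 24 h, then 1035, 2893 and 1696 at 48 h, with every 24 h array below the arrays on either side. Its root arrays were all at or below 67.7.

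Of the members, 3 pairs are next to each other in the reference annotation with no protein-coding gene between them, among 107 members that could be placed. These are COR15B and COR15A, AT4G30650 and AT4G30660, and AT1G21670 and AT1G21680. Across the 30 arrays Pearson's r between the log2 values of each pair was 0.82, 0.72 and 0.95. The arrays fall into 2 organs and share the peak that chose the genes, so these values describe the pairs and carry no test.

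The return from the peak was described by the share of the score that was left at a later time, that is the mean at 24 or 48 h minus the larger of the means at 0 and 96 h, as a percentage of the score. The median share left was 33.7% at 24 h and 21.8% at 48 h. With the 24 h replicates taken separately the median was 43.7%, 35.5% and 28.1% (SD 7.83, n = 3). At 24 h, 47 genes had under 25% left, 45 had 25 to 75% and 20 had over 75%. The corresponding counts at 48 h were 61, 42 and 9. All 24 h arrays lay below all 12 h arrays in 52 genes (6.93% of all single-gene probe sets), and in 33 of these they were also not all above the 0 h arrays (6.06% of all). All 24 h arrays lay above all 0 h arrays in 51 genes (11.1% of all). The 0 and 12 h arrays chose the genes, so these counts are a description.

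The genes with the deepest drop between 12 and 24 h were COR15A (-3.46 on the log2 scale), AT4G30650 (-2.92), AT1G56300 (-2.61), AT3G23550 (-2.09) and LTI30 (-1.96). At the other end, AT5G22580, AT1G64710, AT2G29150, AT2G04020 and AT5G01740 were higher at 24 h than at 12 h. AT5G22580 gave 799, 2384 and 3722 at 0 h, 4058, 6322 and 5576 at 12 h, then 6745, 8871 and 7719 at 24 h, ending with 1843, 1866 and 1914 at 96 h. Its 24 h arrays were all above its 12 h arrays, and 139% of its score was present at 24 h. AT1G64710 had 133% and AT5G01740 110%.

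**Figure D3:**
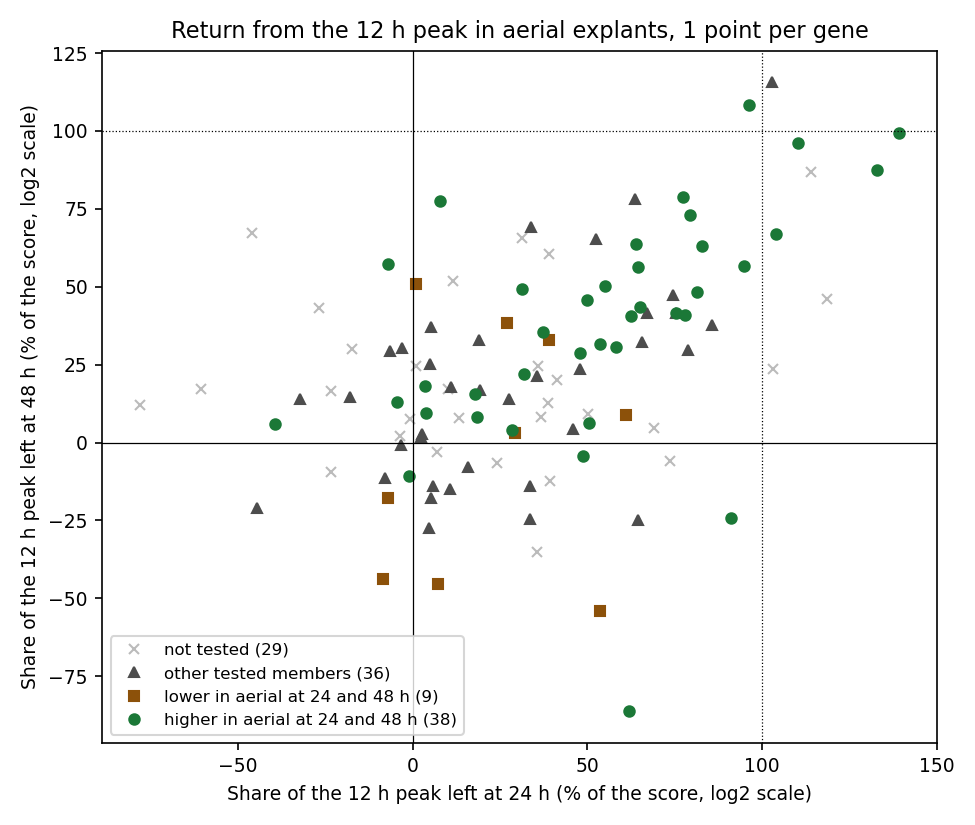
Share of the 12 h score left at 24 h (horizontal) and at 48 h (vertical) in aerial explants, in percent on the log2 scale, with 1 point for each of the 112 genes and symbols for their organ tests. Dotted lines mark 100%. Of the points, 63 lie between 0 and 100% on both axes, and AT5G22580 and AT1G64710 lie farthest to the right at 139 and 133%.

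Whether the decline continued from 24 to 48 h could be tested, since neither group chose the genes. The rule took genes whose aerial mean was lower at 96 h than at 12 h. A downward step between those times is therefore not independent of the choice. Of the 112 genes, 83 passed the level filter, which asked for at least 3 of the 30 arrays above 87.4. All 83 also passed it without the aerial 12 h arrays, and 29 were not tested. By limma with Benjamini-Hochberg adjustment over 16765 probe sets, 0 of the 83 were higher at 48 h than at 24 h in aerial explants (2.94% of all tested probe sets were) and 2 were lower (1.41%). Before adjustment, 3 were higher (12% of all tested probe sets) and 8 were lower (6.29%) at a p under 0.05. The median change of the 83 was -0.13 on the log2 scale, against 0.08 over all tested probe sets. AT4G11290 gave 1157, 1182 and 924 at 24 h and 347, 325 and 433 at 48 h, a change of -1.51 ± 0.45 (SE; limma adjusted p = 0.0498). AT4G25410 gave 67.8, 82.6 and 33.9 at 24 h and 5.70, 10.9 and 27.4 at 48 h, a change of -1.18 ± 0.32 (limma adjusted p = 0.0300). The groups did not overlap in either gene. All aerial arrays of AT4G25410 at 24 and 48 h lay below 87.4, so the size of its change depends on the pseudocount. AT4G11290 lost the call without any single array of either group (adjusted p from 0.0719 to 0.151), and AT4G25410 without the first or second replicate of either time (0.0945 to 0.153). With array medians aligned, the median of all probe sets moved from 0.08 to -0.09, and 292 rather than 493 of all probe sets were higher and 450 rather than 236 lower.

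In root explants the mean was highest at 0 h in 57 of the 112 genes, against 27% of all single-gene probe sets, and at 12 h in 22, against 16.2%. Among the 78 genes with every aerial 12 h array above 87.4, 38 had their highest root mean at 0 h and 18 at 12 h. The exclusion of root scores above 1 works against root peaks at 12 h, so nothing is read from that comparison. At 0 h the root mean was at least 2-fold above the aerial mean in 34 genes (15.7% of all) and at least 2-fold below it in 18 (15.4%). Between 0 and 12 h the root mean dropped at least 2-fold in 26 genes (8.04% of all) and climbed as much in 6 (7.35%). All of these times entered the rule, and the shares are given as a description.

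In 26 genes all aerial arrays at 12 h were above all those at 0 h while all root arrays at 12 h were below all those at 0 h, against 2.23% of all single-gene probe sets. They include AT4G30650, AT4G30660, AT1G21680, AT1G67910, LTI30, BGLU44, DPE1, B120, AT2G46600 and AT5G05600. In 12 genes the 12 h arrays of both organs were above the 0 h arrays (4.16% of all), and JRG21, BGLU28, BRH1 and OTP81 are the members with a symbol among them. Aerial arrays at 12 h were all above those at 0 h in 99 genes (12.7% of all). AT2G41730 had root arrays of 8843, 7087 and 8158 at 0 h against 977, 1088 and 707 at 12 h, while its aerial arrays were at 121, 247 and 136 against 639, 1357 and 788. Its probe set may also bind transcripts of related genes, by the ending of its name.

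At 24 h, where the organs could be tested, 46 of the 83 genes were higher in aerial than in root explants (25.4% of all tested probe sets were) and 13 were lower (36.1%), by limma with Benjamini-Hochberg adjustment. At 48 h, 45 were higher (24.2%) and 12 lower (31.5%). The median difference of the 83 was 0.85 at 24 h and 0.93 at 48 h on the log2 scale, against -0.23 and -0.16 over all tested probe sets. The rule used neither time but took genes that were high in aerial explants at 12 h and left out those high in root explants, so a difference in this direction is not independent of the choice.

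**Figure D4:**
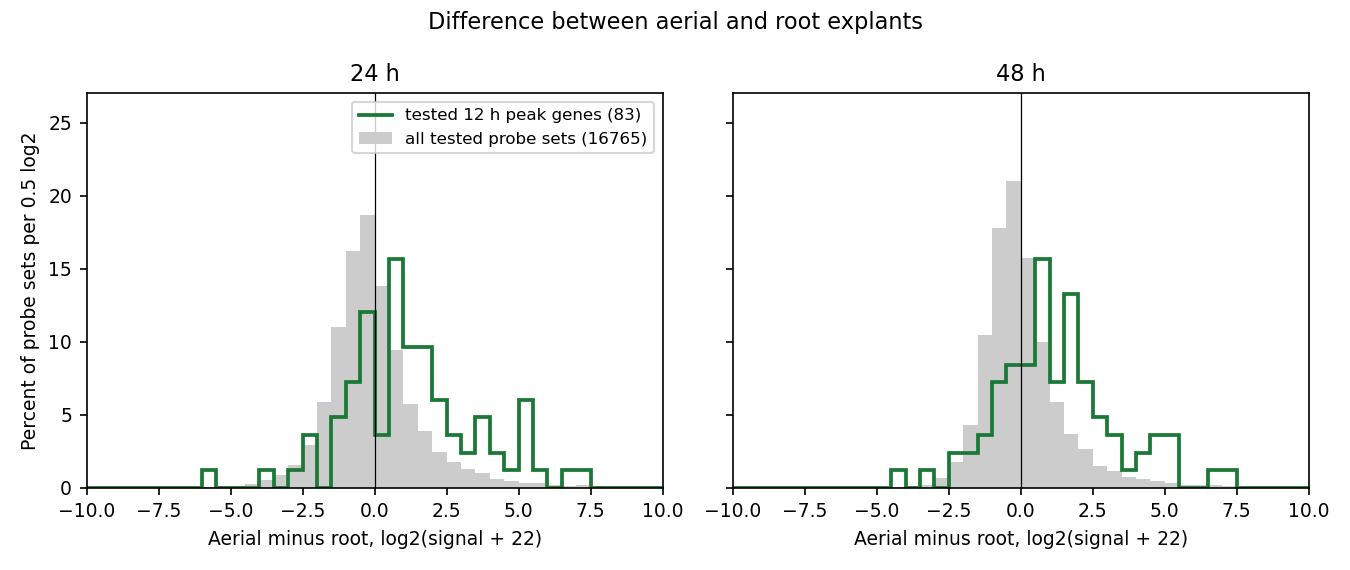
Difference between aerial and root explants in mean log2(signal + 22) at 24 h (left) and 48 h (right), as percent of probe sets per 0.5 log2 units, for all 16765 tested probe sets (grey) and the 83 tested genes of the set (green line). The green line is shifted to the right, with medians of 0.85 and 0.93 against -0.23 and -0.16.

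The widest differences among the genes higher in aerial explants were far above the median of 0.85 over the 83 tested genes at 24 h. AT5G22580 gave 6745, 8871 and 7719 in aerial and 4.5, 49.8 and 80.4 in root explants at 24 h, a difference of 7.06 ± 0.42 (SE) on the log2 scale (limma adjusted p = 2.09e-14). AT5G01740 gave 4070, 4454 and 3455 against 37.3, 22.8 and 4.80 (6.59 ± 0.38). BGLU44 gave 3731, 2806 and 4478 against 63.0, 59.1 and 86.6 (5.32 ± 0.26). Root signals of these 3 genes were below the level of 87.4, so the size of the difference depends on the pseudocount while its direction does not. AT1G64710 (5.61 ± 0.32) and AT5G57760 (5.25 ± 0.49) followed at 24 h, and at 48 h the 5 widest differences were those of AT5G22580 (7.39), AT5G01740 (6.87), AT5G57760 (5.48), AT1G64710 (5.45) and AT3G62550 (5.08).

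Of the genes with known roles, BRH1 exceeded its root level by 3.57 ± 0.30 (24 h) and 4.08 ± 0.30 (48 h), EXPA16 by 2.43 ± 0.36 and 2.25 ± 0.36, and IAA29 by 1.28 ± 0.51 and 1.56 ± 0.51. COR15B differed by 1.92 ± 0.45 at 24 h and 1.73 ± 0.45 at 48 h. COR15A differed by 1.98 ± 0.60 at 24 h (limma adjusted p = 0.00575), and its difference of 1.31 ± 0.60 at 48 h did not pass (limma adjusted p = 0.0649). Without aerial 24 h replicate 3, COR15A lost its call at 24 h (adjusted p 0.0692), and without aerial 48 h replicate 1 or 3 it gained one at 48 h (0.0177 and 0.0484). IAA29 lost its call at 24 h without aerial replicate 1 or 2 or root replicate 2 or 3 (adjusted p 0.0605 to 0.160) and at 48 h without root replicate 2 (0.0601). The receptor kinase SD1-29 had smaller differences of 0.83 ± 0.26 (24 h) and 0.89 ± 0.26 (48 h), which also passed.

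The genes lower in aerial explants were led by LTI30, with 114, 99.0 and 180 against 7156, 6419 and 8127 in root explants at 24 h, a difference of -5.60 ± 0.37 (limma adjusted p = 1.49e-13). AT2G38240 gave 168, 174 and 102 against 1246, 3406 and 2512 (-3.74 ± 0.44). GSTU22 differed by -2.97 ± 0.33, AT5G05600 by -2.41 ± 0.37 and JRG21 by -2.20 ± 0.45. At 48 h the 5 genes farthest below root explants were LTI30 (-4.14), AT2G38240 (-3.30), AT4G25410 (-2.47), JRG21 (-2.11) and BGLU28 (-1.58).

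Both tests together gave 38 genes that were higher in aerial explants at 24 and 48 h (20% of all tested probe sets) and 9 that were lower at both times (26.4%). The 9 were LTI30, JRG21, GSTU22, AT2G38240, AT5G05600, AT4G25410, AT5G51830, AT1G61640 and AT2G30600. All 9 had a root mean at 0 h at least 2-fold above the aerial mean, as had 2 of the 38 and 19 of the remaining 36 tested genes. Over all single-gene probe sets the share was 15.7%. The 0 h arrays of both organs entered the rule, so these counts are a description. The median share of the score left at 24 h was 56.6% in the 38 genes, 26.9% in the 9 and 19.0% in the 36. The aerial arrays at 24 h enter both the grouping and the share, so these medians are a description.

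From 24 to 48 h in root explants, 1 of the 83 genes was higher (2.17% of all tested probe sets) and 3 were lower (1.66%), with a median of -0.20 against 0.03 over all. AT5G02540 rose from 268, 96.8 and 90.3 to 1289, 629 and 857, a change of 2.53 ± 0.34 (SE; limma adjusted p = 1.57e-05). AT5G05600 fell from 1488, 3561 and 2711 to 582, 1453 and 803, a change of -1.44 ± 0.37 (limma adjusted p = 0.0199). GSTU22 fell from 1303, 1520 and 1993 to 442, 755 and 751, a change of -1.29 ± 0.33 (limma adjusted p = 0.0203). AT2G46600 fell by 1.01 on the log2 scale, from 552, 739 and 894 to 344, 214 and 546 (SE 0.28, limma adjusted p = 0.0344). The 24 and 48 h arrays did not overlap in any of these 4 genes. Each of the 3 falls lost its call without some single array: AT5G05600 without root 24 h replicate 2 or 3 or root 48 h replicate 1 or 3 (adjusted p 0.0874 to 0.188), GSTU22 without root 24 h replicate 2 or 3 or root 48 h replicate 1 (0.0722 to 0.186), and AT2G46600 without root 24 h replicate 2 or 3 or root 48 h replicate 1 or 2 (0.128 to 0.194).

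A direct test of the step from 24 to 48 h between the organs found the aerial step above the root step in 1 gene (1.62% of all tested probe sets) and below it in 1 (1.28%). With array medians aligned, 198 rather than 271 of all probe sets had the aerial step above and 300 rather than 214 had it below. For AT5G02540 the aerial step was -0.67 and the root step 2.53, a difference of -3.21 ± 0.48 (SE; limma adjusted p = 1.27e-04). For AT1G56300 the aerial step was 0.91, from 74.7, 139 and 182 to 159, 243 and 418, and the root step was -1.03, from 279, 233 and 314 to 123, 115 and 131. Their difference was 1.94 ± 0.51 (limma adjusted p = 0.0306), while neither step passed alone. AT5G02540 kept its call whichever array at 24 or 48 h was left out, with differences from -3.65 to -2.94. AT1G56300 lost it without root 24 h replicate 1 or 3, any of the root 48 h replicates, aerial 24 h replicate 1 or aerial 48 h replicate 3 (adjusted p 0.0503 to 0.120).

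Of genes known to be highest in the evening, 4 had a single-gene probe set and none was a member. All 4 scores were above 0, as were 25.6% over all single-gene probe sets. CCL had a score of 0.85 and aerial means of 1719 ± 1009 (SD, n = 3) at 0 h, 14582 ± 2261 at 12 h, 7596 ± 1266 at 24 h and 8145 ± 1768 at 96 h. GI, the clock gene GIGANTEA, scored 0.70, with 47.3 ± 38.3 at 0 h, 581 ± 231 at 12 h, 122 ± 83.6 at 24 h and 359 ± 169 at 96 h. COR27 scored 0.30 and AT4G33980 0.08. By arithmetic mean signal, all 4 were highest in aerial explants at 12 h. By log2 means, 17.1% of all single-gene probe sets were highest there. For COR27 the aerial mean of 543 ± 437 at 12 h was close to the 508 ± 252 at 48 h. All 4 genes stayed above their 0 h mean at 96 h. At 24 h and again at 48 h, 2 of the 4 were higher in aerial than in root explants (25.4% and 24.2% of all tested probe sets) and 1 was lower (36.1% and 31.5%). The part of daily rhythm in the scores was not tested.

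Several further lists held no member. These were the lists of sugar starvation (3 measured genes), flavonoid synthesis (4), cytokinin response (2), glucosinolate synthesis (2), ribosome biogenesis (6), hypoxia (3), light signalling (1), pathogen defence (1) and morning clock genes (1). The starch list gave DPE1 alone of 2. Against the same 25.4% and 36.1% of all tested probe sets at 24 h and 24.2% and 31.5% at 48 h, both starch genes were higher in aerial explants at 24 h and 1 of them at 48 h. All 3 sugar starvation genes were higher at both times. All 6 ribosome biogenesis genes and all 3 hypoxia genes were lower at both times, and the 3 heat shock genes were lower at 24 h and 2 of them at 48 h. Of the 9 cell wall loosening genes, 5 were higher and 3 lower at 24 h, and 5 and 4 at 48 h. Of the 5 xenobiotic and oxidative response genes, 2 were higher and 3 lower at both times. No gene of the abscisic acid, ethylene, phosphate starvation, nitrate or cuticle lists was matched to a single-gene probe set.

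At the edge of the rule, the lowest scores inside were those of OTP81 (0.91), AT1G69350 (0.90) and SD1-29 (0.90), and the next below were those of scpl40 (0.90), AT4G12500 (0.90) and AT3G10190 (0.89). The set thus has no gap at its lower end. The 8 genes left out for their root scores included AT1G10585 with an aerial score of 2.08 and a root score of 4.0, AER with 1.78 and 3.15, and UGT76E12 with 1.90 and 1.93. Without a pseudocount 42 of the 112 genes were chosen again, with a pseudocount of 100 there were 74, and with group medians in place of means 67.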

How the data were processed

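Affymetrix ATH1 arrays measured 30 samples, 3 biological replicates by the labels in each of 10 groups. The deposited intensity values are MAS5 signals, per the submitters' processing notes. The version and settings of MAS5 were not stated in the sources used here, and the number of arrays limits the precision. The deposited table held 22810 probe sets, 64 of them controls, and 0 columns of per-sample values were left unused. Names came from the platform annotation, which can be old: 13513 probe sets had 1 gene, 503 several and 8730 none.

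Signals were analysed as log2(signal + 22), where 22 is the 20th percentile of all values. This scale understates changes of dim genes. Tests used limma 3.58.1 in R 4.3.3, with 1 fit of 10 group means, a mean-variance trend and 28.6 degrees of freedom. They were two-sided, with Benjamini-Hochberg adjustment over 16765 probe sets that exceeded 87.4, the 40th percentile, on at least 3 arrays. An adjusted p under 0.05 counted as a call. The members, the 27 gene lists and the tests were chosen with earlier results of these data known.

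Named genes were the 20 highest scores, members on a list, the 5 widest called changes each way per comparison, the genes at the edge of the rule and the extremes of the change from 12 to 24 h. Further genes with a symbol, and COR47 in its tests, were named after their values were seen. Alternatives changed the pseudocount, filter, scaling, arrays in the fit and replicate numbers as a block, and left out each array in turn. Promoter motifs were planned but not analysed here, since no sequence was used.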

Additional observations from a re-analysis of the deposited data

Results flagged for a closer look

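The change from 24 to 48 h differed between the organs in 2 genes by a direct test (limma, adjusted over 16765 probe sets). AT5G02540 rose by 2.53 in root explants and changed by -0.67 in aerial explants, which did not pass, with an aerial minus root difference of steps of -3.21 on the log2 scale. AT1G56300 had a difference of 1.94, with a higher aerial and a lower root mean at 48 h than at 24 h. In 26 genes every aerial array at 12 h was above, and every root array at 12 h below, the arrays of the same organ at 0 h. That difference between the organs was not tested, since both times chose the genes.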

How the results depend on the processing

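No tested value of a named gene changed direction under the alternatives run. Over these genes 44 values lost a call, 3, all of COR15A at 48 h, gained one, and the rest kept their side of the threshold. From 24 to 48 h in aerial explants, the count of members higher was 1 with a pseudocount of 100 and 0 to 2 with single arrays left out. The count lower was 1 without a pseudocount, 1 without the filter, 4 with centred arrays, 4 with the replicate block and 0 to 2 with single arrays left out. In root explants the count higher was 2 with only the compared groups in the fit and 1 to 2 with single arrays left out. The count lower was 5 with the replicate block, 6 with only the compared groups and 0 to 6 with single arrays left out, with 6 when replicate 1 of root 24 h was dropped and 0 when replicate 2 was. Between organs, leaving out single arrays gave 40 to 44 members higher and 10 to 12 lower at 24 h, and 42 to 46 and 10 to 12 at 48 h. The count of members with the aerial step above the root step was 0 to 2 with single arrays left out. The count below was 2 with a pseudocount of 100, 3 with centred arrays, 2 with the replicate block and 1 to 3 with single arrays left out. Of the 112 members, 42 were chosen again without a pseudocount, 74 with a pseudocount of 100 and 67 with group medians. With single aerial arrays at 0, 12 or 96 h left out, 76 to 100 were chosen again. The cause was not tested in any of these cases.

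Without a pseudocount AT4G11290 (adjusted p 0.157) and IAA29 (0.156 at 24 h, 0.0905 at 48 h) lost their calls, as did AT4G11290 without the filter (0.0619), AT4G25410 with a pseudocount of 100 (0.152), and AT4G25410 (0.185) and AT2G46600 (0.0841) with only the compared groups. That setting called 254 rather than 729 probe sets in the aerial step. The median share of the peak left at 24 h was 29.0 to 35.5% with single arrays left out, and 32.4 to 40.7% under 4 other settings, all chosen after seeing the data. Deviations of same-numbered arrays at 24 and 48 h had r of 0.235, 0.032 and 0.122 in aerial and 0.390, 0.274 and 0.093 in root explants, and 1 of 3 and 2 of 3 arrays correlated best with their own number, so the numbers were not taken as pairs. The replicate block moved the calls over all probe sets from 729 to 883 and from 642 to 783 in the aerial and root steps. Members dim at their peak, 34 of 112, are limited by signal over background.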

Other observations

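Other probe sets of member genes did not all share the score. The second probe set of AT1G10090 scored -0.31 against 0.99 for the member, and that of AT2G30600 scored 0.64 against 0.94. The reference annotation lists 4 members as pseudogenes, AT1G63040, AT2G15700, AT2G06190 and AT1G42200, of which AT1G63040 alone passed the level filter.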
